A study of Mus musculus with 26 samples.

Results

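The genes described here code for purinergic receptors and for an ectonucleotidase, the proteins by which microglia sense and break down extracellular nucleotides. They were chosen by symbol and number 7 of the 31053 genes counted: the P2Y receptors P2ry6 and P2ry14, the P2X receptors P2rx4 and P2rx7, the adenosine receptors Adora3 and Adora2a, and the enzyme Entpd1. Their levels were compared in 18 of the 26 libraries of the series, which held single cells sorted from mouse cortex by labelling of Cd11b, Cx3cr1 and Cd45, surface proteins that microglia carry. The question was how maternal immune activation (MIA) and age alter these cells. All animals were wild-type C57Bl/6N mice whose dams were injected intraperitoneally at E12.5 with saline or with poly(I:C), a double-stranded RNA made to imitate a viral infection (MIA). Libraries of somatosensory cortex, with the meninges removed, were made at E13 (3 saline, 3 MIA), at E15 (3 saline, 3 MIA) and at postnatal day 14, P14 (4 saline, 2 MIA). E13 and E15 are the labels of the libraries. The embryonic ages that the study itself gives are slightly later and lie whole days after the injection. Of the saline libraries at P14, replicate 3F is labelled female and replicate 3M male, while the other P14 libraries carry no sex label. The study's methods describe cells of both sexes in each sample, but a figure legend counts as many P14 mice as libraries. Embryonic cortices were pooled within a library, so p-values measure the spread between these libraries. The 8 libraries of nuclei in the series were not used here.

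ATP and UTP leak from damaged or active cells and act as signals. P2X receptors are ion channels opened by ATP, P2Y receptors are coupled to G proteins and read ATP, ADP, UTP, UDP or UDP-sugars, and the ectonucleotidase Entpd1 (CD39) strips phosphates from ATP and ADP at the cell surface. The AMP that results is turned into adenosine by Nt5e (CD73), and adenosine is read in turn by its own receptors. In microglia these genes are known for steering process motility, phagocytosis and the release of interleukin-1β.

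The 7 genes lie at separate places in GRCm38, apart from P2rx7 (chr5:122643911-122691432) and P2rx4 (chr5:122707544-122729738), which follow each other on the plus strand of chromosome 5. P2ry6 lies at chr7:100937630-100974649 (minus), P2ry14 at chr3:59113855-59153618 (minus), Adora3 at chr3:105870858-105908926 (plus), Adora2a at chr10:75316877-75334784 (plus) and Entpd1 at chr19:40612366-40741602 (plus). Adora3 shares 779 exonic bases, 20.9% of its exons, with Tmigd3 on the same strand, which was listed at 0.281 to 0.896 CPM (UMIs per 1000000). P2ry14 lies opposite Med12l and shares no exonic base with it.

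RefSeq promoter windows (GRCm38.p6, from 250 bases before to 50 bases after an annotated start) were found for 5 of the 7 genes. Windows of the genes whose levels moved most with age, Adora3, Entpd1, P2rx7 and P2ry14, are printed 5′ to 3′ on the strand of the gene, with matches to a motif in capitals. Searched on both strands were a PU.1-type ETS motif (GAGGAAGT, which reads ACTTCCTC on the other strand), an AP-1 motif (TGANTCA) and an interferon response element.
Adora3, chr3:105904171-105904470, plus strand: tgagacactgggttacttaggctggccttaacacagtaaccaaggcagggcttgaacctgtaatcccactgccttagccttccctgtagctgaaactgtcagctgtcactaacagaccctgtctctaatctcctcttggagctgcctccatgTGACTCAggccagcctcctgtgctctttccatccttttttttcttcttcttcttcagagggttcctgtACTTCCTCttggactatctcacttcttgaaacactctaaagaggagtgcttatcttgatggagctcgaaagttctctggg
P2rx7, the second annotated start, chr5:122650133-122650432, plus strand: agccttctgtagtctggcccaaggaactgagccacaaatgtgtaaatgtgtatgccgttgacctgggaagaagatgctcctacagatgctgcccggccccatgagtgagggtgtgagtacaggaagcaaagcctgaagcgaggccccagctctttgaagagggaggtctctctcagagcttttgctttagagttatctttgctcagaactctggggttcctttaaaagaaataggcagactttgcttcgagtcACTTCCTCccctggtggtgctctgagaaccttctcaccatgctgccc
P2ry14, chr3:59153443-59153742, minus strand: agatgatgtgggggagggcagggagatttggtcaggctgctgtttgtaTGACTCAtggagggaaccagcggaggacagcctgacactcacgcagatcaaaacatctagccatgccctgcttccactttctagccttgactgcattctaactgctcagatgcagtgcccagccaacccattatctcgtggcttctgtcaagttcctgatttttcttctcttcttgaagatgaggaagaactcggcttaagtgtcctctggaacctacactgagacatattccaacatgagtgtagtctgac
Entpd1, chr19:40612116-40612415, plus strand: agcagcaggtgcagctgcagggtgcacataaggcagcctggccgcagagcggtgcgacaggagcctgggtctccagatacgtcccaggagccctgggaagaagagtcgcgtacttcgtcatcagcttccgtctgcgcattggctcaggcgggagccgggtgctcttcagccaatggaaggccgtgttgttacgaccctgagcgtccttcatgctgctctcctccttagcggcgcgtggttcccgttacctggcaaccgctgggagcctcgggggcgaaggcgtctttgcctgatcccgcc

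The Adora3 window held an ETS match at −30 to −23 and an AP-1 match at −98 to −92, counted from the start. The P2rx7 window held an ETS match at 3 to 10, and the window of its upstream start an AP-1 match. The P2ry14 window held an AP-1 match at −202 to −196, and a downstream P2ry14 start another. No letters of these 3 motifs were found in the windows of Entpd1 or P2rx4, nor the interferon element in any window of the 5 genes. Of 32544 distinct windows of this length, 3.11% held the ETS motif, 7.79% the AP-1 motif and 3.45% the interferon element, so the matches are descriptions of the sequence. The windows also differed in CpG content. The printed Entpd1 window held 23 CpG and its second window 10, and P2rx4 held 18. The P2rx7 windows held 8 and 4, Adora3 held 1 and the 4 P2ry14 windows 1 to 4, against a median of 7 over all windows (quartiles 3 and 20).

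After removal of cells with under 500 genes or over 20% mitochondrial UMIs (unique molecular identifiers, 1 for each captured RNA molecule), 280 to 6375 cells per library were left, and they held 6160925 to 105751888 UMIs. In 17 libraries 92.3% to 99.1% of cells were called microglia by a list of 10 markers, all 10 of them found in every library. In E15 MIA replicate 1 the share was 77.0%, and 22.2% of its cells were called neurons. Cells with dividing markers made up 56.5% to 63.7% of the libraries at E13, 10.9% to 15.2% at E15 apart from 43.1% in saline replicate 1, and 0.261% to 3.01% at P14. Cell barcodes were shared far above the median of 0.156% of the smaller library for a few library pairs. Of the 375 barcodes of E13 MIA replicate 2, 258 (68.8%) recurred in P14 saline replicate 3F, 239 (63.7%) in P14 saline replicate 3M and 230 (61.3%) in E15 MIA replicate 3, and 133 of the 280 barcodes of E13 MIA replicate 1 (47.5%) recurred in P14 MIA replicate 1. Barcodes with fewer UMIs than their copy in another library held 10.2% of the UMIs of E15 MIA replicate 3, 8.19% of P14 saline 3F and 6.09% of P14 saline 3M. The results are given with all barcodes. Without these lower copies none of the calls between ages below was lost and no MIA effect was called, and levels at P14 that moved are given beside them.

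Age was accompanied by the larger differences in these genes. Adora3 and Entpd1 rose at both steps, about 3.86-fold and 4.53-fold in CPM from E13 to P14 after saline, and P2rx7 rose 2.95-fold. P2ry6 rose between E13 and E15. P2rx4 was highest at E15, and P2ry14, low throughout, fell to its lowest level at P14. Levels are CPM, the UMIs of the gene per 1000000 UMIs summed over all cells of a library, in which fewer cells of a type and less RNA per cell cannot be told apart. They were tested with edgeR's quasi-likelihood test on the summed counts in a model of all 18 libraries, with Benjamini-Hochberg adjustment over 15121 genes, of which 6 were from this set, since Adora2a was too low to be tested.

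**Figure D1:**
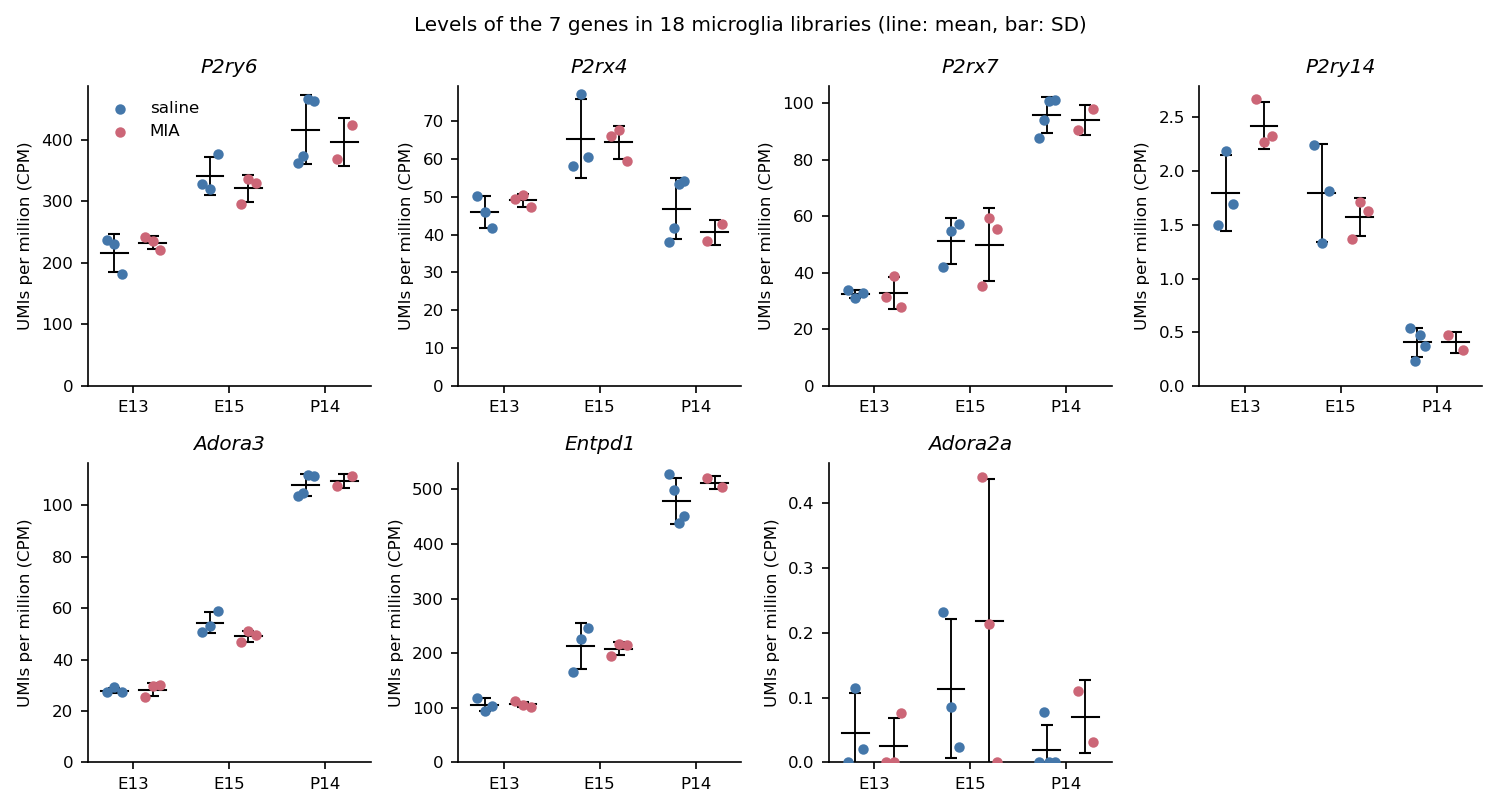
Level of each of the 7 genes in the 18 microglia libraries, in CPM (linear axis from 0), by age, with saline in blue and MIA in red. Each point is a library, horizontal lines are group means and bars the SD. Adora3 lies between 25.3 and 30.0 CPM at E13 and between 104 and 112 CPM at P14 with no overlap, whereas saline and MIA points of the same age lie close together.

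From E13 to E15 after saline 5 of the 6 tested genes rose and none fell, where 20.6% of all genes tested passed, 10.7% upward and 9.86% downward. After MIA 4 of 6 rose, where 30.3% of all genes passed, 16.4% upward and 14% downward. The median log2 fold change of the 6 genes was 0.63 after saline and 0.52 after MIA, that of all genes 0.04 and 0.06. From E15 to P14 3 rose and 2 fell after saline, where 48.0% of all genes passed, 24.2% upward and 23.9% downward. The same counts held after MIA, where 38.1% passed, 17.8% upward and 20.3% downward. Since so many genes passed at the second step, these counts are not read as particular to the set, and the genes are described one by one. Both steps use the E15 libraries and are not independent.

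P2ry6 codes for a receptor of UDP that is known for triggering phagocytosis by microglia. At E13 it stood at 237, 231 and 181 CPM in the saline libraries and at 241, 235 and 221 CPM in the MIA libraries. At E15 it was found at 329, 319 and 377 CPM after saline and at 296, 336 and 330.2 CPM after MIA. Every E15 library lay above every E13 library. The rise was 0.63 ± 0.13 on the log2 scale after saline (SE, edgeR adjusted p = 0.00374) and 0.44 ± 0.13 after MIA (adjusted p = 0.0178), where leaving out E13 MIA replicate 2 gave an adjusted p of 0.0580 and a model of those MIA groups alone 0.0620. At P14 the saline libraries held 362, 373, 466 and 463 CPM and the MIA libraries 368 and 424 CPM. These overlapped with E15, with the sexed replicates 3F and 3M the highest of all (482 and 473 CPM without lower copies). The change from E15 to P14 was not past the threshold, at 0.10 (95% interval −0.15 to 0.36, adjusted p = 0.502) after saline and 0.16 (−0.15 to 0.46, adjusted p = 0.411) after MIA.

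The step from E15 to P14 depended on the scaling for its zero point. TMM factors, which set the bulk of genes to no change, put the median gene at 0.03 after saline and −0.03 after MIA, and library totals at 0.21 and 0.12, a shift of 0.18 and 0.15. Of the genes called, 50.3% were higher at P14 after saline with TMM and 63.9% with totals, and after MIA 46.7% and 58.4%. With totals P2ry6 differed by 0.28 (adjusted p = 0.0651) and 0.30 (adjusted p = 0.107), still not past the threshold. The calls of the other 5 tested genes at this step held under both scalings.

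P2ry14, whose product reads UDP-glucose and related UDP-sugars, was sparse. Single libraries held 14 to 246 of its UMIs at E13 and E15 and 6 to 13 at P14. At E13 the saline libraries stood at 1.5, 2.19 and 1.70 CPM and the MIA libraries at 2.67, 2.27 and 2.33 CPM. At E15 they stood at 2.24, 1.33 and 1.82 CPM after saline and at 1.37, 1.71 and 1.63 CPM after MIA. Between these ages the libraries overlapped, and the difference was −0.02 (95% interval −0.67 to 0.62, adjusted p = 0.969) after saline and −0.65 (−1.33 to 0.02, adjusted p = 0.130) after MIA. At P14 levels of 0.541, 0.232, 0.476 and 0.370 CPM were found after saline and of 0.477 and 0.338 CPM after MIA, each below every embryonic library. P2ry14 fell by 2.34 on the log2 scale from E15 to P14 after saline (SE 0.31, adjusted p = 2.1e-05) and by 2.09 after MIA (SE 0.39, adjusted p = 0.000729). Without lower copies of shared barcodes the falls were −2.47 and −2.06.

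P2rx4 codes for an ATP-gated channel found in large part on lysosomes. Saline libraries at E13 held 50.1, 46.0 and 41.8 CPM and MIA libraries 49.5, 50.5 and 47.2 CPM. E15 libraries held 58.2, 77.3 and 60.6 CPM after saline and 66.1, 67.6 and 59.5 CPM after MIA. At P14 38.1, 41.8, 53.3 and 54.2 CPM were measured after saline and 38.2 and 42.9 CPM after MIA, with 53.6 and 55.0 CPM in replicates 3F and 3M without lower copies. All E15 libraries thus lay above all libraries of both other ages. The rise to E15 was 0.48 ± 0.14 after saline (SE, adjusted p = 0.0234), and after MIA it was 0.37 (95% interval 0.08 to 0.67), not past the threshold (adjusted p = 0.0533). It fell by 0.66 from E15 to P14 after saline (SE 0.13, adjusted p = 0.000555) and by 0.82 after MIA (SE 0.16, adjusted p = 0.000904). The call after saline at the step from E13 lay near the threshold. It was not passed without E13 saline replicate 2 (0.51, adjusted p = 0.0549), E13 saline replicate 3 (0.46, adjusted p = 0.0728) or E15 saline replicate 2 (0.36, adjusted p = 0.100), nor in a model of those saline groups alone (0.46, adjusted p = 0.0660). After MIA it passed under 7 of 16 alternatives. In edgeR it passed without E15 MIA replicate 3 (adjusted p = 0.0327), in cells called microglia (0.53, adjusted p = 0.0162), without dividing cells (0.50, adjusted p = 0.0274) and without lower copies (0.38, adjusted p = 0.0451). The same held without the barcodes of highest UMI count (0.42, edgeR adjusted p = 0.0280) and with library totals (0.40, edgeR adjusted p = 0.0492). DESeq2 called it too (0.40, Wald test adjusted p = 0.0278).

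P2rx7 codes for the channel that opens at high ATP and leads to release of mature interleukin-1β through the NLRP3 inflammasome. It was measured at 33.9, 31.1 and 32.7 CPM in the E13 saline libraries and at 31.5, 39.0 and 27.8 CPM in the E13 MIA libraries. At E15 the saline libraries held 42, 54.6 and 57.3 CPM and the MIA libraries 35.2, 59.4 and 55.5 CPM. Replicate 1 was the lowest of each E15 group, and E15 MIA replicate 1 lay within the range of E13. In cells called microglia that library held 41.6 CPM, above the highest E13 library (39.8 CPM in E13 MIA replicate 2). The rise was 0.62 ± 0.16 after saline (SE, adjusted p = 0.0135) and 0.61 ± 0.16 after MIA (adjusted p = 0.0125). Without E15 saline replicate 2 it had an adjusted p of 0.05005, and without E15 MIA replicate 2 of 0.0516, both over the threshold, and a model of the E13 and E15 MIA groups alone gave 0.103. At P14 all libraries lay higher than at E15, with 87.8, 93.9, 101 and 101 CPM after saline (106 and 105 CPM in replicates 3F and 3M without lower copies) and 90.4 and 97.8 CPM after MIA. That step was 0.72 ± 0.15 after saline (adjusted p = 0.000986) and 0.76 ± 0.18 after MIA (adjusted p = 0.00291), where a model of those MIA groups alone gave an adjusted p of 0.0978.

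Adora3 codes for the A3 adenosine receptor, which is coupled to inhibitory G proteins. The E13 libraries held 27.3, 29.2 and 27.2 CPM after saline and 25.3, 29.5 and 30.0 CPM after MIA. At E15 they held 50.9, 53.1 and 58.9 CPM after saline and 46.9, 51.2 and 49.4 CPM after MIA. At P14 they held 104, 105, 112 and 111 CPM after saline and 108 and 111 CPM after MIA, with 119 and 116 CPM in saline replicates 3F and 3M without lower copies. The ages were fully separated. From E13 to E15 Adora3 rose by 0.93 ± 0.09 after saline (SE, adjusted p = 2.27e-05) and by 0.77 ± 0.09 after MIA (adjusted p = 0.000112). From E15 to P14 it rose by a further 0.81 ± 0.09 (adjusted p = 2.55e-06) and 1.01 ± 0.10 (adjusted p = 2.54e-06).

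Adora2a, whose product is coupled to stimulatory G proteins and is known for process retraction in activated microglia, was close to absent from these counts. The E13 libraries held 5 UMIs after saline and 8 after MIA, the E15 libraries 22 and 33, and the P14 libraries 2 and 4, and 7 of the 18 libraries held none, which at 3 UMIs allows a level of up to 0.101 to 0.487 CPM per library. The highest value was 25 UMIs (0.439 CPM) in E15 MIA replicate 1, the library in which 22.2% of cells were called neurons. Before thinning, an Adora2a UMI was found in 0.797% of 1505 neuron-called cells at E15 and in 0% to 0.195% of microglia-called cells per library, and the part of neurons in its level was not tested further.

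Entpd1, the ectonucleotidase of the set, showed the largest rise in CPM. At E13 it stood at 119, 94.5 and 104 CPM after saline and at 112, 104 and 102 CPM after MIA. At E15 the saline libraries held 166, 226 and 246 CPM and the MIA libraries 195, 216 and 215 CPM. At P14 they held 527, 499, 438 and 451 CPM after saline and 520.3 and 504 CPM after MIA. The ages did not overlap, and within P14 the sexed replicates 3F and 3M were the lowest (465 and 472 CPM without lower copies). The step from E13 to E15 was 0.98 ± 0.13 after saline (SE, adjusted p = 0.000251) and 0.95 ± 0.13 after MIA (adjusted p = 0.000272). The step from E15 to P14 was 1.00 ± 0.12 (adjusted p = 1.33e-05) and 1.15 ± 0.14 (adjusted p = 2.54e-05).

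**Figure D2:**
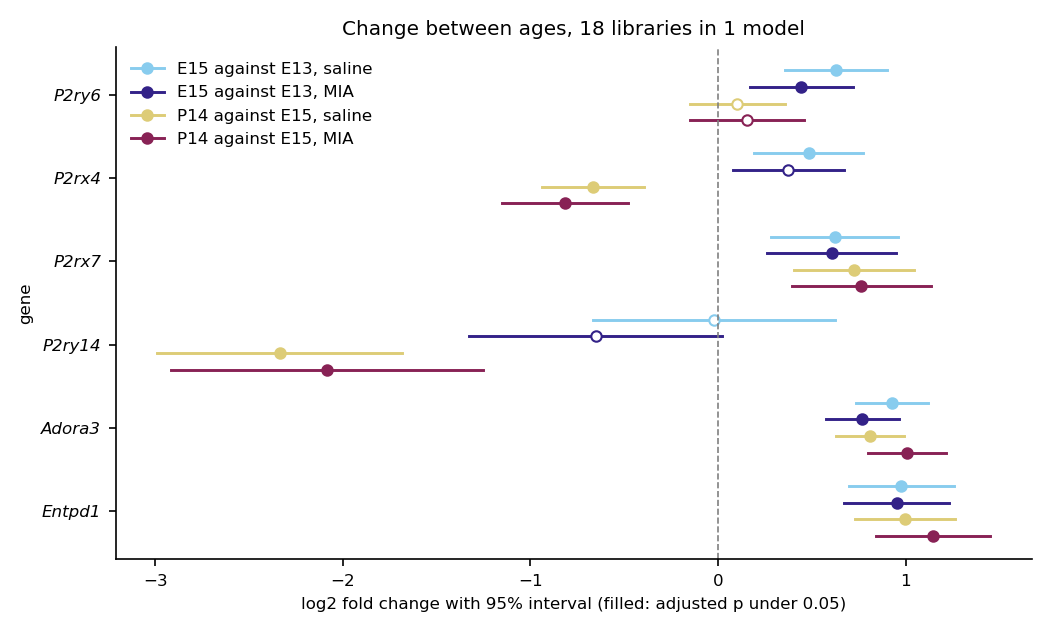
Log2 fold change (horizontal axis) with its 95% interval for each of the 6 tested genes (vertical axis) between E13 and E15 and between E15 and P14, after saline and after MIA. Filled points passed an adjusted p of 0.05. Adora3, Entpd1 and P2rx7 lie to the right of 0 at both steps, P2rx4 changes side between the steps, and P2ry14 lies at −2.34 and −2.09 for the step to P14.

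Cells in division, far more common at E13, and neuron-called cells moved with age. Without dividing cells, in cells called microglia and without lower copies of shared barcodes, 5 of the 6 genes were called at each step and in each treatment group, always the same directions as above. In non-dividing cells, Entpd1 rose by 0.94 from E13 to E15 and by 0.95 from E15 to P14 after saline, and Adora3 by 1.01 and 0.76. Summed markers of border macrophages, which line the meninges and vessels, ranged from 323 to 1792 CPM at E13, 243 to 647 CPM at E15 and 166 to 292 CPM at P14. The summed microglia markers rose with age, from 15989 to 17172 CPM at E13, 22723 to 29041 CPM at E15 and 46719 to 54283 CPM at P14. Markers of a response to cell isolation stood at 197 to 318 CPM at E13, at 255 to 302 CPM in 5 of the 6 E15 libraries and at 387 to 509.8 CPM at P14. Spp1-type markers stood at 689 to 1169.8 CPM at E13, at 409 to 743 CPM in the same 5 libraries and at 59.7 to 112 CPM at P14. E15 MIA replicate 1 stood apart in both lists, with 948 and 2047 CPM. Interferon-induced genes went from 264 to 514 CPM and 308 to 656 CPM to 157 to 194 CPM. Endothelium markers stood at 14.1 to 24.7 CPM at E13, 15.2 to 31.8 CPM at E15 and 30.8 to 39.1 CPM at P14. The part of each of these lists in the differences between ages was not tested.

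A count of cells with at least 1 UMI gave the same order of ages. Each cell was thinned to 2000 UMIs, since cells at P14 were shallower, and cells under that depth were left out (1501 saline and 1504 MIA cells at E13, 1639 and 1132 at E15, 1256 and 625 at P14). Entpd1 was then found in a median of 18.6% of microglia-called cells per library at E13, 35.6% at E15 and 62.0% at P14. P2ry6 was found in 35.4%, 47.7% and 54.5%, P2rx7 in 6.33%, 10.6% and 17.6%, and Adora3 in 5.54%, 10.2% and 19.2%. For each of these 4 genes the share was highest at P14, also when cells were thinned to 1000 UMIs. P2rx4 went from 9.21% to 11.9% and 7.99%. Unthinned, at median depths of 12677 to 28614 UMIs at E13, 8963 to 13939 at E15 and 3801 to 6948 at P14, the order was lost for some genes, with P2rx4 in 45.5% to 60.3% of cells at E13 and in 13.5% to 27.1% at P14.

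Neuron-called cells of the same libraries were used to gauge RNA from other cells. With median depths of 4006, 3892 and 4982 UMIs at the 3 ages before thinning, 2.78%, 1.73% and 2.48% of them held an Entpd1 UMI, and for Adora3 0%, 0.332% and 0% (0 of 360 cells at E13 allows up to 0.833%, and 0 of 121 cells at P14 up to 2.48%). Neuron-called cells were pooled over the libraries of an age. Before shallow cells were left out, E13 MIA replicate 3 held 388 of them, against 3 to 91 in the other E13 libraries. E15 MIA replicate 1 held 1291, against 50 to 347 in the other E15 libraries. Their 95% interval (Clopper-Pearson, counting error only) leaves out the spread between libraries, which was not tested. The shares of P2ry6, P2rx7, Adora3 and Entpd1 in microglia-called cells lay above this interval at each age. For P2rx4 at P14 this did not hold, since 8 of 121 neuron-called cells held a UMI (6.61%, interval 2.90% to 12.6%). P2ry14 was found in medians of 0.380%, 0.286% and 0.0522% of microglia-called cells, all below the 1.11%, 0.664% and 1.65% of neuron-called cells, so these shares show no detection of P2ry14 in microglia-called cells above that in other cells. For P2ry14, and for P2rx4 at P14, the neuron-called cells are not shown to lack the gene.

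**Figure D3:**
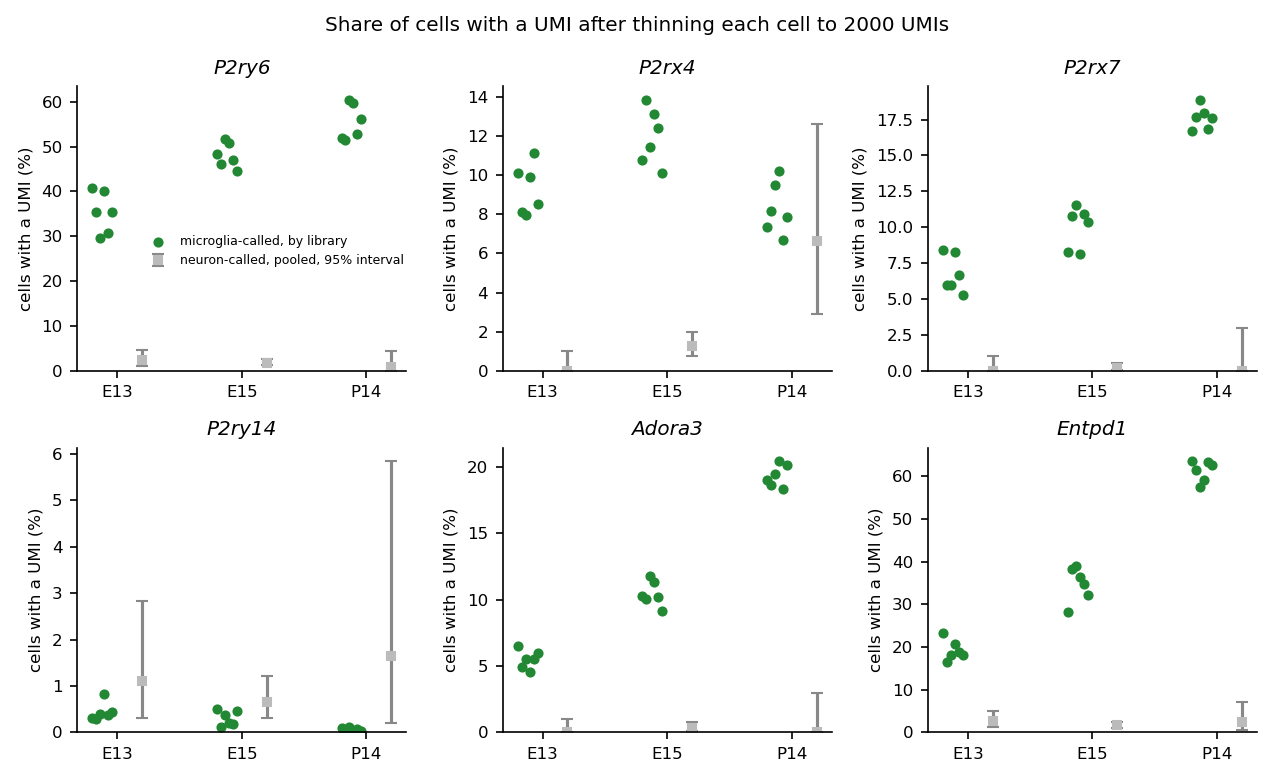
Share of cells with at least 1 UMI of the 6 tested genes after each cell was thinned to 2000 UMIs (vertical axis, percent, from 0), by age. Green points are the microglia-called cells of a library, grey squares the pooled neuron-called cells with a 95% interval. Entpd1 climbs from a median of 18.6% to 62.0%, while P2ry14 points lie at or under the grey squares at every age.

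Whether MIA altered these genes was tested at each age on its own. At E13, E15 and P14, 0 of the 6 tested genes passed edgeR's quasi-likelihood test, against a background of 0.0% of 12994, 14020 and 13640 genes. None had an unadjusted p under 0.05 at any age, where 101, 54 and 417 of all genes did. These counts are lower than a threshold of 0.05 gives with no effect at all. On these libraries the tests were thus conservative, and an absent call is weak at each age. The counts also hung on single libraries. With 1 left out they ranged from 69 to 686 at E13 and 42 to 970 at E15, and with 1 saline library left out from 176 to 1339 at P14. DESeq2 called none of the 6 either, and 2, 0 and 1 of all genes. In the check of the tests on changes of known size the E15 test made no call, unlike those at E13 and P14, so the absence of a call at E15 says nothing about these genes and only the intervals are read there. A difference between the ages in the MIA effect was found for 0 of the 6 genes and for 0.0% of 15121 genes, both between E13 and E15 and between E15 and P14, by edgeR and by DESeq2, with 89 and 181 of all genes and none of the 6 at an unadjusted p under 0.05 in edgeR. With 1 library left out the 89 became 68 to 326. The 181 became 146 to 594 where both P14 MIA libraries were kept.

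The intervals show which effects remain possible. At E13 the log2 differences of MIA against saline were 0.09 for P2ry6 (95% interval −0.21 to 0.39), 0.08 for P2rx4 (−0.15 to 0.31), −0.03 for P2rx7 (−0.29 to 0.24), 0.01 for Adora3 (−0.23 to 0.25) and −0.01 for Entpd1 (−0.27 to 0.26). P2ry14 lay higher in each E13 MIA library than in any E13 saline library, with 2.27 CPM the lowest MIA value and 2.19 CPM the highest saline value. With so few libraries such an order is common by chance, and the share of all genes with it was not counted. The order of P2ry14 is therefore not read as a result. Its difference was 0.41 (−0.20 to 1.02, adjusted p = 1.00), and in the 2 smaller MIA libraries it rests on 19 and 14 UMIs. Summed interferon-induced genes stood at 403, 264 and 287 CPM in the E13 saline libraries and at 488, 514 and 345 CPM in the E13 MIA libraries. They were higher after MIA at each replicate number, though E13 libraries are not shown to pair by number and the groups overlapped. Their part in the P2ry14 difference was not tested. In cells called microglia the groups overlapped, with 1.82 CPM in E13 MIA replicate 2 and 2.08 CPM in E13 saline replicate 2. The interval of P2ry14 was the widest of the 6 at each age.

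At E15 the differences were −0.10 for P2ry6 (−0.44 to 0.24), −0.22 for P2ry14 (−1.0 to 0.57), −0.03 for P2rx4 (−0.43 to 0.36), −0.04 for P2rx7 (−0.61 to 0.53), −0.15 for Adora3 (−0.47 to 0.16) and −0.04 for Entpd1 (−0.45 to 0.38). All 6 were below 0. In cells called microglia, 3 of them, P2rx7, P2rx4 and Entpd1, lay at 0.03, 0.07 and 0.06 instead. This leaves out the other cells of every library, and what changed the sign was not tested. Since same-numbered E15 libraries deviated together, a replicate block was also fitted, in which 5 of the 6 intervals were narrower and all still included 0. Adora3 lay at −0.15 (−0.36 to 0.05, edgeR adjusted p = 0.974) with the block and was lower after MIA in each of the 3 same-numbered pairs (−0.12, −0.05 and −0.25 on the log2 scale). In cells called microglia its first pair went the other way, with 52.0 CPM in E15 saline replicate 1 and 55.4 CPM in E15 MIA replicate 1. With 3 pairs a shared sign is common by chance, and it is not read as a result. At P14 the differences were −0.05 for P2ry6 (−0.32 to 0.22), 0.03 for P2ry14 (−1.12 to 1.17), −0.19 for P2rx4 (−0.50 to 0.13), −0.01 for P2rx7 (−0.18 to 0.16), 0.04 for Adora3 (−0.11 to 0.19) and 0.11 for Entpd1 (−0.14 to 0.37). The 4 saline libraries at P14 fell apart by pair for 5 of the 6 genes, all but P2ry14, with the sexed replicates 3F and 3M higher for P2ry6, P2rx4, P2rx7 and Adora3 and lower for Entpd1. The models counted these 2, which share a replicate number, as separate libraries. With the 2 summed, 186 in place of 417 genes had an unadjusted edgeR p under 0.05 for MIA at P14. From E15 to P14 after saline 6519 in place of 7262 genes were called. No call of the 6 genes changed. In the libraries without a sex label alone the P14 differences were 0.10 for P2ry6, 0.02 for P2rx4, 0.05 for P2rx7, 0.07 for Adora3, −0.01 for Entpd1 and 0.08 for P2ry14. In cells called microglia P2ry14 lay at 0.43 at P14, also not called.

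**Figure D4:**
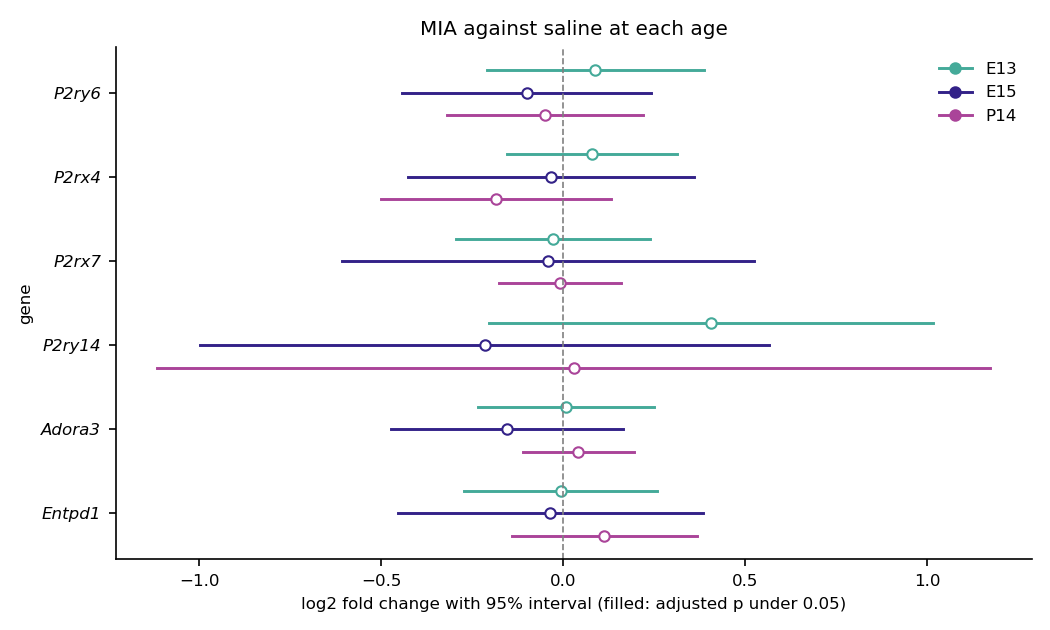
Log2 fold change of MIA against saline (horizontal axis) with its 95% interval for the 6 tested genes (vertical axis) at E13, E15 and P14. All points are open, since none passed an adjusted p of 0.05, and every interval includes 0. The interval of P2ry14 at P14 runs from −1.12 to 1.17, that of Adora3 at P14 from −0.11 to 0.19.

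Libraries hold several kinds of myeloid cell, and the genes were compared between cells that carried at least 3 of 10 markers of a list and the other cells of the same library. The lists were for dividing cells, border macrophages, interferon-induced genes and Spp1-type microglia. In the 12 embryonic libraries 13010, 5405, 2285 and 7409 cells were in these classes. They are ranges of a score and not cell types, since 2359, 2890, 1240 and 4796 of them had exactly 3 markers and 3712, 6316, 4671 and 9507 cells just below had 2. The median cell of each class held all 10 microglia markers, 46.2% to 52.2% of the cells of the 3 other classes also had dividing markers, and the classes were deeper than the remaining cells (medians of 15952 to 20296 UMIs against 8579 to 9567). Whether that depth plays a part was not tested. Levels were tested by a two-sided exact permutation test (sign flips over libraries) of log2(CPM + 1), with Benjamini-Hochberg adjustment over all 11762 to 12020 genes with a mean of at least 1 CPM. By this test 51.5% of all genes differed in dividing cells (26.7% higher, 24.8% lower), 31.3% in the border macrophage class (14.2% higher, 17.2% lower), 18.2% in the interferon class (5.64% higher, 12.6% lower) and 39.3% in the Spp1-type class (15.1% higher, 24.2% lower). Of the 6 genes 4, 5, 3 and 4 differed. With shares of all genes this high, the counts are not read as particular to the set. Adjusted within the 56 tests of the set and both age groups instead, 17 of 28 embryonic tests passed, the same 16 and that of Adora2a.

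Adora3 was the gene that differed most in cells with border macrophage markers. It stood at 11.9 to 17.7 CPM in these cells and at 31.0 to 39.2 CPM in the other cells at E13, and at 26.7 to 33.2 CPM against 49.4 to 61.3 CPM at E15. It was lower in 12 of 12 libraries, on average by −1.05 on the log2 scale (SD 0.25, exact permutation adjusted p = 0.00427, where 0.000488 is the smallest unadjusted p the design allows). The size depended on the settings, with −1.65 when at least 4 markers were asked for and −0.80 at a pseudocount of 10 CPM. P2rx4 went the other way, with 74.7 ± 19.1 CPM (SD, n = 12) in these cells against 50.6 ± 11.5 CPM in the others and higher in 12 of 12 libraries (0.54, exact permutation adjusted p = 0.00427). P2rx7 was higher by 0.24 in 11 of 12 libraries (exact permutation adjusted p = 0.00619), a call lost when at least 4 markers were asked for (0.21). Entpd1 was lower in 11 of 12 by −0.31 (exact permutation adjusted p = 0.00619) and P2ry14 in 11 of 12 by −0.48 (exact permutation adjusted p = 0.0436), which was −0.092 and not called at a pseudocount of 10 CPM. P2ry6 differed by 0.03 ± 0.10 (SD, exact permutation adjusted p = 0.466). Adora2a, with 6 UMIs in these cells over all 12 libraries, was too low for the test over all genes. At P14 the border macrophage class held 571 cells, of which 21.7% were lower copies of shared barcodes. There the mean differences of Adora3 and P2rx4 were −0.67 and 0.50, lower and higher in 6 of 6 libraries, each with an unadjusted exact permutation p of 0.0312, the smallest that 6 libraries allow, which did not pass after adjustment. For Adora3 it was −1.72 with at least 4 markers and −0.46 without lower copies, and for P2rx4 0.82 and 0.46.

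P2ry14 had its largest difference in cells with 3 or more interferon-induced genes. At E15 it stood at 3.25, 6.91 and 12.9 CPM in these cells of the saline libraries against 2.13, 0.752 and 1.26 CPM in the other cells, and at 7.90, 15.8 and 12.2 CPM in the MIA libraries against 0.970, 0.930 and 1.02 CPM. The cells of this class held 4.75% to 10.3% of the UMIs of the E15 libraries and 14.9% to 48.9% of their P2ry14 UMIs. E15 saline replicate 1 had the smallest of the 6 differences, and it was also the E15 library with 43.1% dividing cells, whose part was not tested. At E13 the class stood at 1.5 to 3.51 CPM and the other cells at 1.5 to 2.85 CPM. Over both ages the difference was 1.2 ± 1.25 (SD, higher in 11 of 12 libraries, exact permutation adjusted p = 0.0208), and whether it differed between E13 and E15 was not tested. The size at these low levels depended on the settings, with 0.42 at a pseudocount of 10 CPM and 1.46 when at least 4 markers were asked for. It rests on 8 to 18 cells with a P2ry14 UMI in the class per E15 library, with 11 to 31 UMIs, and nearly all of these cells were called microglia. P2rx4 was also higher in this class, in 12 of 12 libraries and by 0.34 (exact permutation adjusted p = 0.00888), while Entpd1 was lower by −0.18 (exact permutation adjusted p = 0.0180).

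Dividing cells had lower levels of 4 of the genes. Entpd1 stood at 125 ± 28.8 CPM (SD, n = 12) in them against 174 ± 57.5 CPM in the other cells and P2ry6 at 234 ± 36.3 CPM against 305 ± 58.1 CPM, both lower in 12 of 12 libraries (−0.43 and −0.37, exact permutation adjusted p = 0.00227 for each). P2rx4 and P2rx7 were lower by −0.28 and −0.26 (exact permutation adjusted p = 0.00606 and 0.00490). For Adora3 (−0.22, exact permutation adjusted p = 0.0979) and P2ry14 (0.27, exact permutation adjusted p = 0.0540) the test was not passed. In cells with markers of the Spp1 type, genes linked to lipid handling and phagocytosis, P2rx4 was higher by 0.25 in 11 of 12 libraries (exact permutation adjusted p = 0.00557). Adora3 was lower by −0.38, P2ry6 by −0.19 and Entpd1 by −0.12 (exact permutation adjusted p = 0.0119, 0.00398 and 0.0104). P2rx4 was thus higher in 3 of the 4 classes and lower in dividing cells. The 3 classes are not exclusive and are not separate observations. The median cell of the interferon and of the Spp1-type class held 2 border macrophage markers, against 1 in the other cells. Without lower copies of shared barcodes 18 of the 28 tests within the set passed, among them these 17. At P14 77.5% of cells with dividing markers and 41.6% of cells with Spp1-type markers were lower copies, and no values are given for them.

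**Figure D5:**
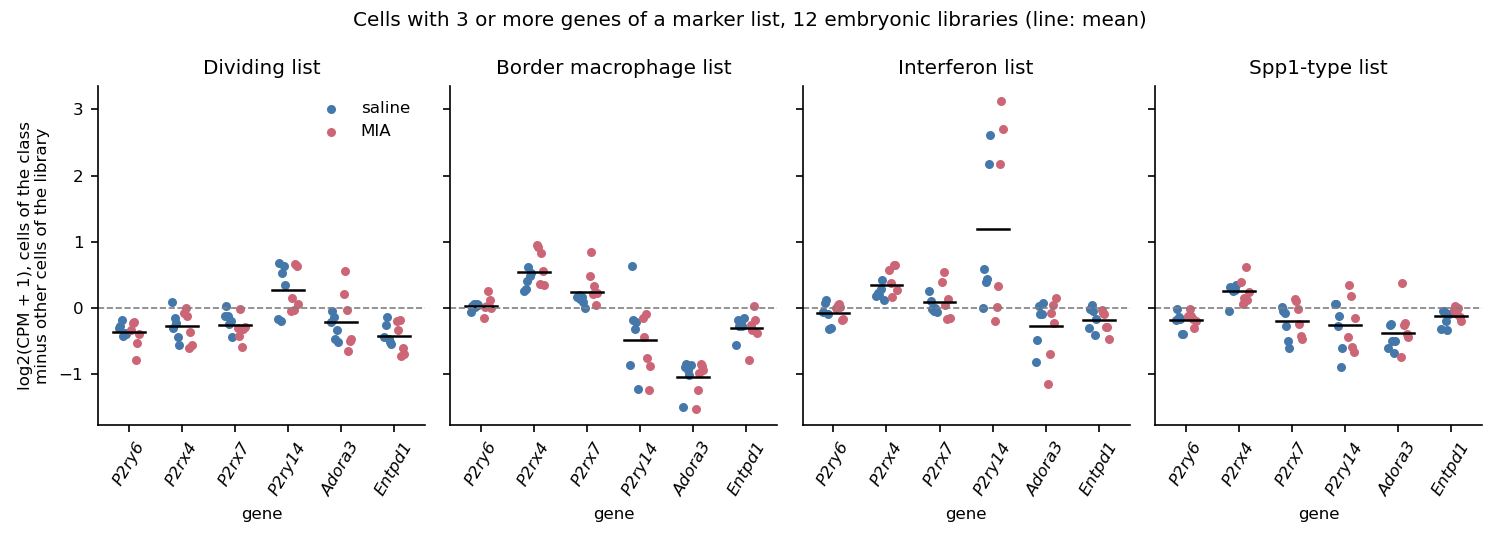
Difference in log2(CPM + 1) between cells with 3 or more markers of a list and the other cells of the same library (vertical axis) for 6 genes (horizontal axis) and 4 lists, in the 12 embryonic libraries. Each point is a library, saline in blue and MIA in red, and lines are means. Adora3 in the border macrophage class has a mean of −1.05, and P2ry14 in the interferon class spreads from −0.20 to 3.12 with a mean of 1.2.

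The rest of the pathway was followed with a list of 44 genes that includes the 7, of which 32 were tested between ages, 26 beside the 6 already described. From E13 to E15 after saline, 4 of the 26 rose and 3 fell, near the 20.6% of all genes. P2ry12, the ADP receptor that draws microglial processes to injury, rose by 1.00 ± 0.12 (SE, adjusted p = 8.77e-05) from 873 ± 34.6 CPM (SD, n = 3) to 1793 ± 321 CPM. Slc29a3, a nucleoside transporter of lysosomes, rose by 0.71, Gsdmd, the pore-forming effector of the inflammasome, by 0.64, and Kcnk13, a potassium channel known for its part in inflammasome activation, by 0.48. Adk and Ada, which remove adenosine inside the cell, fell by 0.75 and 0.65, and Casp1, the protease that matures interleukin-1β, fell by 0.44. After MIA 5 rose and 4 fell, where 30.3% of all genes passed. Adora1 rose by 2.02 at 0.281 to 1.32 mean CPM, P2ry12 by 1.01, Slc29a3 by 0.63 and Gsdmd by 0.52, while Ada fell by 1.09, Adk by 0.87 and Casp1 by 0.61. Cd38 fell by 2.01 (adjusted p = 0.0490), from 1.24 to 8.28 CPM in the E13 MIA libraries, the lowest of which lay within the 0.650 to 1.31 CPM of the E15 MIA libraries, and it was not past the threshold under 13 of 16 alternatives. Border macrophage markers also spread among the E13 MIA libraries, at 1792, 798 and 369 CPM, and their part in the level of Cd38 was not tested. After saline, the falls of Casp1 and Ada were not past it under 8 and 7 of 16 alternatives and the rise of Kcnk13 under 3. Summed neuron markers stood at 2309.7 CPM in E15 MIA replicate 1 and at 635 and 190.2 CPM in the other E15 MIA libraries. The rise of Adora1 was 1.53 in cells called microglia (adjusted p = 0.0145), 1.62 without E15 MIA replicate 1 (adjusted p = 0.0186) and 0.92 without dividing cells, where it was not past the threshold (adjusted p = 0.351).

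From E15 to P14 after saline 6 of the 26 rose and 7 fell, near the 48.0% of all genes. Among those that rose were Enpp2 (autotaxin, 2.30 at 0.342 to 1.95 mean CPM), P2ry12 (1.54, to 5900.4 CPM), the ADP receptor P2ry13 (1.52, to 717 CPM) and the inflammasome sensor Nlrp3 (0.87). Among those that fell, P2ry2 went from 48 to 2 UMIs and P2rx6 from 51 to 2 UMIs, too few for a fold change. Il1b fell by 3.88 from 4.80 to 0.363 mean CPM, and Enpp1, which splits ATP to AMP, fell by 1.31. After MIA 6 rose and 6 fell, where 38.1% of all genes passed. Enpp2 rose by 2.02, P2ry13 by 1.51, P2ry12 by 1.49 and Slc29a3 by 0.96. P2ry2 went from 37 to 2 UMIs and P2rx6 from 31 to 4 UMIs, Il1b fell by 2.28 and Adk by 1.16. Of these, Enpp2 was not past the threshold under 8 of 16 alternatives and P2rx6 under 7 of 15.

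By role, the cell surface steps around Entpd1 were unevenly represented. Nt5e, the enzyme that makes adenosine from the product of Entpd1, had 3 to 14 UMIs in any group of libraries and was not tested. Of the adenosine receptors, Adora3 was the only member with more than 2 mean CPM in any group, since Adora1 reached 1.32 CPM and Adora2b 0.426 CPM. Of the P2X receptors P2rx1 lay at 10.5 to 16.5 mean CPM, and P2rx2, P2rx3 and P2rx5 had at most 27 UMIs in any group. MIA was followed by no call among the 21, 22 and 21 other genes of the list tested at E13, E15 and P14, where 0, 0 and 2 had an unadjusted p under 0.05.

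Over the 18 libraries the levels of Adora3 and Entpd1 ran closest together of the 15 pairs of tested genes (Pearson r of log2(CPM + 1) = 0.99), followed by P2rx7 with Adora3 and with Entpd1 (r = 0.97 each). P2ry14 ran against Entpd1 (r = −0.92), and P2rx4 had values between −0.20 and 0.36 with the other 5. Of 8032 genes with a mean of at least 10 CPM, those most like Adora3 were Ecscr, Ctc1 and Laptm5 (r = 0.994, 0.994 and 0.993) and those most like Entpd1 were Cmtm8, Laptm5 and Ecscr (r = 0.995, 0.993 and 0.992). For P2rx7 they were Retreg1, Il6ra and Trim5 (r = 0.99 each), for P2ry6 Mxd4, Cep95 and Pid1 (r = 0.97, 0.97 and 0.96), and for P2ry14 Tpm2, Ethe1 and Rac2 (r = 0.96 each). P2rx4 had the loosest likeness, with Inpp4a, Atp13a2 and Arl5c (r = 0.89, 0.88 and 0.87). The 18 points share their library, depth and age, so these values describe the common pattern over ages.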

How the data were processed

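Single-cell libraries were made with 10x Chromium 3' v3.1 chemistry. The authors deposited UMI counts per gene and barcode, made with Cell Ranger 3.1.0 (submitters' processing notes; the study's methods name a later version) on mm10, without normalization. Cells under 500 genes or over 20% mitochondrial UMIs were removed and the counts of the others summed per library, and doublets were not removed. Sums were tested with edgeR 4.0.16 (TMM, filterByExpr, quasi-likelihood test, R 4.3.3), MIA against saline within each age and ages in 1 model of 18 libraries, with Benjamini-Hochberg adjustment and a threshold of 0.05. DESeq2 1.42.0 was an alternative, beside other filters, cell sets, scalings and libraries left out, of which library totals and the removal of lower copies of shared barcodes were added after seeing the data. The study's model also held sex and sequencing batch. Neither sex nor batch was in the models here, and the labels do not give batch. Class levels were tested by exact permutation (scipy 1.17.1), adjusted over all genes of at least 1 CPM, an adjustment added after seeing the data. The tests were checked on simulated data, for 5 of the 9 comparisons (MIA at each age, E15 against E13 after saline, P14 against E15 after MIA). The E15 test of MIA made no call, and the other 4 recovered part of the changes with a share of false calls above the threshold. Simulated libraries were drawn independently of each other, without shared deviations. A replicate block was fitted because same-numbered saline and MIA libraries deviated together at E15 (r = 0.688, 0.493 and 0.743, across 4322 genes). At E13 they had r = 0.291, 0.286 and 0.419. There saline replicate 1 with MIA replicate 2 had r = 0.426 and saline replicate 2 with MIA replicate 3 had r = 0.299, so pairing by number is not shown at E13. At P14 same-numbered libraries had r = 0.190 and 0.538. The deviations of the 2 MIA libraries there mirror each other, so this check does not settle pairing at P14. The 7 genes and all lists were chosen with earlier results of these data known. Named are the 7 genes, up to 4 called genes of the pathway list per direction and comparison, and the 3 genes most like each of the 6 tested genes over libraries. Other genes of that list, named by role (Nt5e, Adora2b, P2rx1, P2rx2, P2rx3 and P2rx5), were chosen after their values were seen. Sequences are from RefSeq, gene positions from GENCODE.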

Additional observations from a re-analysis of the deposited data

Results flagged for a closer look

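Adora2a stood at 0.0775 CPM in P14 saline replicate 2, which rests on 2 UMIs, while the other 3 saline libraries of that age held none. It was picked out because Dixon's ratio of the gap to the range exceeded its 95% critical value for 4 libraries, as it does for any count beside 3 libraries at 0. The usual rate of chance, about 1 in 20 groups, does not hold for such counts, and nothing is read from the value.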

How the results depend on the processing

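Over the alternatives, no MIA effect and no difference of MIA effects between ages was called for any of the 6 tested genes. At E15 the main edgeR test made no call on changes of known size either, so its absent call says nothing. The alternatives were not checked on such changes, and their absent calls at E15 are not read. Called genes between ages kept their direction throughout. From E13 to E15, leaving out 1 library gave 3 to 5 called genes after saline, with 3 without E15 saline replicate 2, and 3 to 5 after MIA, where a model of those groups alone gave 2. Between ages a replicate block changed no call, with 5 and 4 genes from E13 to E15 after saline and MIA and 5 and 5 from E15 to P14. In that model each replicate number had 1 effect shared by all ages. It does not model pairing within an age, so the unchanged calls say nothing about such pairing.

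Uncalled values near 0 changed sign, and the cause was not tested. For MIA against saline at E13 these were Adora3 at −0.0051 with no filter on low counts, −0.21 without dividing cells and −0.0025 without the barcodes of highest UMI count, P2rx7 at 0.073 without dividing cells and Entpd1 at 0.0057 with library totals. At E15 they were P2rx7 at 0.033, P2rx4 at 0.072 and Entpd1 at 0.063 in microglia-called cells. At P14 they were P2rx7 at 0.042, P2rx4 at 0.013, P2ry6 at 0.096 and Entpd1 at −0.012 with the replicate block, and P2rx7 at 0.0076 with replicates 3F and 3M summed. In the P14 libraries without a sex label the same 4 genes lay at 0.047, 0.019, 0.104 and −0.0084. P2ry14 from E13 to E15 after saline was 0.00098 with no filter, 0.015 in microglia-called cells, 0.023 without the highest UMI counts and 0.0038 with library totals, and P2ry6 from E15 to P14 after MIA was −0.00077 in microglia-called cells. Among classes, P2ry6 in embryonic border macrophage-marker cells was −0.0090 and P2rx7 in those of P14 −0.23 with at least 4 markers, P2ry14 there was 0.017 at a pseudocount of 10 CPM, and P2rx7 in interferon-marker cells of P14 was 0.014 without lower copies.

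Leaving out 1 library at a time, the E13 effect of MIA ranged from −0.067 to 0.053 for Adora3, −0.077 to 0.064 for Entpd1, −0.017 to 0.14 for P2ry6 and −0.12 to 0.073 for P2rx7. At E15 it ranged from −0.39 to 0.00019 for P2ry14, −0.21 to 0.15 for P2rx7, −0.14 to 0.11 for P2rx4 and −0.17 to 0.026 for Entpd1, and at P14 from −0.24 to 0.27 for P2ry14, −0.057 to 0.039 for P2rx7 and −0.15 to 0.040 for P2ry6. P2ry14 from E13 to E15 after saline ranged from −0.22 to 0.17.

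Counts over all genes moved more. From E13 to E15 after saline 3110 genes were called and 1528 to 4314 with 1 library left out, after MIA 4589, against 1394 in a model of those groups and 2398 without dividing cells. From E15 to P14 after MIA 5760 were called, 2545 in a model of those groups and 3120 and 3677 without either P14 MIA library. For MIA at E13 the count was 0, 1 with the block and 4 without MIA replicate 3. What sets the width of the MIA intervals was not tested. P2ry14 and Adora2a rest on few UMIs.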
